A study of Mus musculus with 6 samples.

Results

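Cyclic AMP signalling genes known for high expression in striatal projection neurons were described in the optic nerve of adult mice, 10 of the 24062 genes in the count tables. They are Gnal, Gng7, Adcy5, Pde10a, Pde1b, Pde2a, Rgs9, Rasd2, Ppp1r1b and Ptpn5. The set was picked by name after Pde10a, Gng7 and Rasd2 were seen to be higher in the mutant libraries, so every difference between mutant and control reported for these 10 genes is given as a description only. RNA was sequenced from optic nerves of 3 control and 3 Nf1 mutant libraries. Among the controls, which carry no Cre, library 1 is Nf1flox/flox while libraries 2 and 3 are Nf1flox/+. The 3 mutant libraries have the genotype PlpCreERT2;Nf1flox/flox, in which a tamoxifen-inducible Cre under the Plp promoter acts on Nf1 in cells that use that promoter, which include oligodendrocytes. Floxed Nf1, adult age and tamoxifen are common to both groups, and the interval from tamoxifen to collection was 1 month. The labels tie no library to a separate animal, so the spread between libraries may be partly technical. In bulk tissue, fewer cells of a type and less RNA per cell cannot be told apart.

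Cyclic AMP is made by adenylyl cyclases, which stimulatory G proteins switch on and inhibitory ones switch off, and it is broken down by phosphodiesterases. Its main effector is protein kinase A, whose action is opposed by protein phosphatases. In the striatum, dopamine and adenosine receptors act on this pathway through the G protein subunits encoded by Gnal and Gng7 and the cyclase encoded by Adcy5, genes that are abundant there and also expressed in other tissues. The optic nerve holds axons and glia but no neuronal cell bodies.

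For reference, the 250 bases upstream of annotated starts are given for Pde10a, Gng7 and Rasd2, the genes for which the set was picked. They are from RefSeq on GRCm38.p6, read 5′ to 3′ on the strand of the gene, with any TGACG or its reverse complement CGTCA, the core of the cyclic AMP response element, in capitals. Pde10a has 2 windows in the table, both inside the gene as the count tables draw it, and the more upstream one is printed. Both starts of Gng7 are printed.
Pde10a (chr17:8801495-8801744, plus strand): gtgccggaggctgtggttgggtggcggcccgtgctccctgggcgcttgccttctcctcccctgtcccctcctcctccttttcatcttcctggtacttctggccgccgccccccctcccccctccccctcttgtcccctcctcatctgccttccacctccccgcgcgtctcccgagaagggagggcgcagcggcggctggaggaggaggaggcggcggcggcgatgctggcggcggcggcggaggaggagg
Gng7, distal start (chr10:81014926-81015175, minus strand): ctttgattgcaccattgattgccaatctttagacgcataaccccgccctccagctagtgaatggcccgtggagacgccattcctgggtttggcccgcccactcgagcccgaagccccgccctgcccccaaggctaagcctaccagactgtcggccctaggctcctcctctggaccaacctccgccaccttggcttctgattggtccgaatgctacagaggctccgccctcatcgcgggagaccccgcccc
Gng7, proximal start (chr10:81001366-81001615, minus strand): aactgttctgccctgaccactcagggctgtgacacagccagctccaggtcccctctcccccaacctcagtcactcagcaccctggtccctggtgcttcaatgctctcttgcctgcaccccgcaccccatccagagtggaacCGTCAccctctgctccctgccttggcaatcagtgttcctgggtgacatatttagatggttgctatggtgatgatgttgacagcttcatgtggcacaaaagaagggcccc
Rasd2 (chr8:75213694-75213943, plus strand): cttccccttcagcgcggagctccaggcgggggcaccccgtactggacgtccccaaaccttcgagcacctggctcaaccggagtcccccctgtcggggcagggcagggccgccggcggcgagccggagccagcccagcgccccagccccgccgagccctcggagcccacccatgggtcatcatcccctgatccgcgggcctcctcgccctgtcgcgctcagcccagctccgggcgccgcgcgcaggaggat

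Promoter windows from 250 bases before to 50 bases after a start were searched for 8 of the 10 genes, 17 windows in all. Gnal was left out of the search, and Ppp1r1b had no window. The full cyclic AMP response element TGACGTCA, which is its own reverse complement, was in 0 of the 17, and in 1.79% of the 32851 mouse windows of this length. The core TGACG, searched on both strands and also contained in the full element, was in 2 of the 17 windows and in 20.8% of all windows. These were the proximal Gng7 window, at base -109 from the start, and 1 of the 5 windows of Pde2a, at base 15 after it. Some genes have several windows. Counted by gene, the core was in 2 of the 8 and in 23% of all genes. The Egr family site GCGTGGGCG, on both strands, was in 0 of the 17 and in 0.612% of all windows. GC content of the 17 windows ran from 44.0% to 79.0%, with a median of 60.3%, and the median of all windows was 52.67%. These counts describe letters in the windows only.

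Library totals ranged from 13555756 to 23662698 counts. Nf1, the targeted gene, had 394, 400.0 and 337 CPM (counts per gene scaled to the effective size of the library) in control libraries 1, 2 and 3 and 304, 226 and 433 CPM in mutant libraries 1, 2 and 3. The groups overlapped. The floxed exons were not counted apart from the rest of the gene. Counts of Xist were 58, 72727 and 34 in control and 38466, 30602 and 51760 in mutant libraries, so control library 2 alone among controls had a level like that of the mutants. Pairs of libraries were compared over the genes with enough counts in the pair, 16747 to 17677 genes, by chi-square per degree of freedom. Control libraries 1 and 3 differed by 115, and the other control pairs by 68.1 and 45.6. Mutant library 2 lay nearer to the controls (59.5 to 63.8) than to mutant libraries 1 and 3 (181 and 203), which differed from each other by 69.7. Myelin genes split the mutants in the same way, with values given below beside the members.

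The G protein genes came first in the pathway. Gnal, on chromosome 18, encodes Golf, the stimulatory alpha subunit that couples striatal dopamine and adenosine receptors to adenylyl cyclase. It had 46.8, 56.2 and 61.7 CPM in control libraries 1, 2 and 3 and 591, 253 and 473 CPM in mutant libraries 1, 2 and 3. All 3 mutant libraries were above all controls, and the lowest mutant value was 4.11 times the highest control value. Means were 54.9 ± 7.55 and 439 ± 171 CPM (SD, n = 3 each), a fitted log2 difference of 3.001. Within 364 bases its exons overlap those of Mppe1, which had 68 to 105 counts per library, and counting was without strand.

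Gng7 (chromosome 10, 80948624 to 81014925, minus strand) encodes the gamma subunit that assembles with Golf in striatal neurons. It had 51.6, 43.8 and 47.3 CPM in the controls, against 356, 334 and 308 CPM in the mutants, in library order. It was the steadiest member within the mutants: the 3 values spanned 0.21 log2 units, where the other 9 members spanned 0.39 to 1.42. The mean went from 47.6 ± 3.87 to 333 ± 24.2 CPM, a log2 difference of 2.81.

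Adcy5 (chromosome 16, 35155636 to 35304549, plus strand) encodes the adenylyl cyclase that makes most cyclic AMP in the striatum. Its levels were 70.7, 70.5 and 59.95 CPM in the controls, against 165, 172 and 131 CPM in the mutants. The groups did not overlap, but the lowest mutant value was 1.85 times the highest control value, the narrowest gap of the 10 genes. The log2 difference was 1.22, the smallest of the set, against 2.19 to 3.72 for the other 9. Means were 67.1 ± 6.17 and 156 ± 21.8 CPM.

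The 3 phosphodiesterase genes differed in size of change. Pde10a (chromosome 17, 8526801 to 8986648, plus strand) encodes a phosphodiesterase of both cyclic AMP and cyclic GMP that is concentrated in projection neurons. It had 36.8, 38.5 and 55.7 CPM in the controls, against 765, 458 and 507.2 CPM in the mutants. This was the largest log2 difference of the set, 3.72, and mutant library 1 stood above the other 2.

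Pde1b (chromosome 15, 103503034 to 103530056, plus strand) encodes a phosphodiesterase that calcium and calmodulin activate. It had 13.3, 14.5 and 13.4 CPM in the controls, against 165, 89.6 and 98.2 CPM in the mutants, a log2 difference of 3.10. Its controls were close to each other, spanning 0.13 log2 units, and each mutant library was at least 6.17 times the highest of them. Pde2a (chromosome 7, 101421691 to 101512829, plus strand) encodes a phosphodiesterase that cyclic GMP stimulates and that is widely expressed in forebrain neurons. It had 39.2, 33.4 and 37.2 CPM in the controls, against 229, 107 and 164 CPM in the mutants, a log2 difference of 2.19. Here mutant library 2 was the lowest of the 3 mutants, 1.10 log2 units below mutant library 1.

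Among regulators of G proteins, Rgs9 (chromosome 11, 109225355 to 109298181, minus strand) encodes a protein that speeds GTP hydrolysis by inhibitory alpha subunits, with retinal and striatal splice forms that gene counts do not separate. It had 23.3, 25.3 and 46.5 CPM in the controls, against 259, 186 and 271 CPM in the mutants. Control library 3 stood above the other controls, so that the control range, 0.99 log2 units, was wider than that of the mutants, 0.54. The log2 difference was 2.91. Rasd2 (chromosome 8, 75213944 to 75224113, plus strand) encodes Rhes, a small GTPase of striatal neurons that dampens signalling from G protein-coupled receptors. It was the least abundant member, with 6.29, 3.94 and 5.19 CPM in the controls, against 72.7, 56.5 and 43.4 CPM in the mutants, a log2 difference of 3.49. Its control values rest on 127, 95 and 125 counts.

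The last pair encodes a phosphatase inhibitor and a phosphatase. Ppp1r1b (chromosome 11, 98348738 to 98357795, plus strand) encodes DARPP-32, which becomes an inhibitor of protein phosphatase 1 when protein kinase A phosphorylates it. It had 14.7, 14.8 and 13.6 CPM in the controls, against 223, 152 and 83.3 CPM in the mutants, a log2 difference of 3.41. It had the tightest controls, within 0.11 log2 units, and the widest mutants, over 1.42. Its exons overlap 164 bases of 1700003D09Rik, which had 22 to 217 counts per library, so that its values are uncertain to that extent. Ptpn5 (chromosome 7, 47077800 to 47133684, minus strand) encodes STEP, a tyrosine phosphatase of striatal and cortical neurons that acts on MAP kinases and glutamate receptors. It had 30.6, 24.4 and 24.5 CPM in the controls, against 175, 101 and 114 CPM in the mutants, a log2 difference of 2.30.

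**Figure D1:**
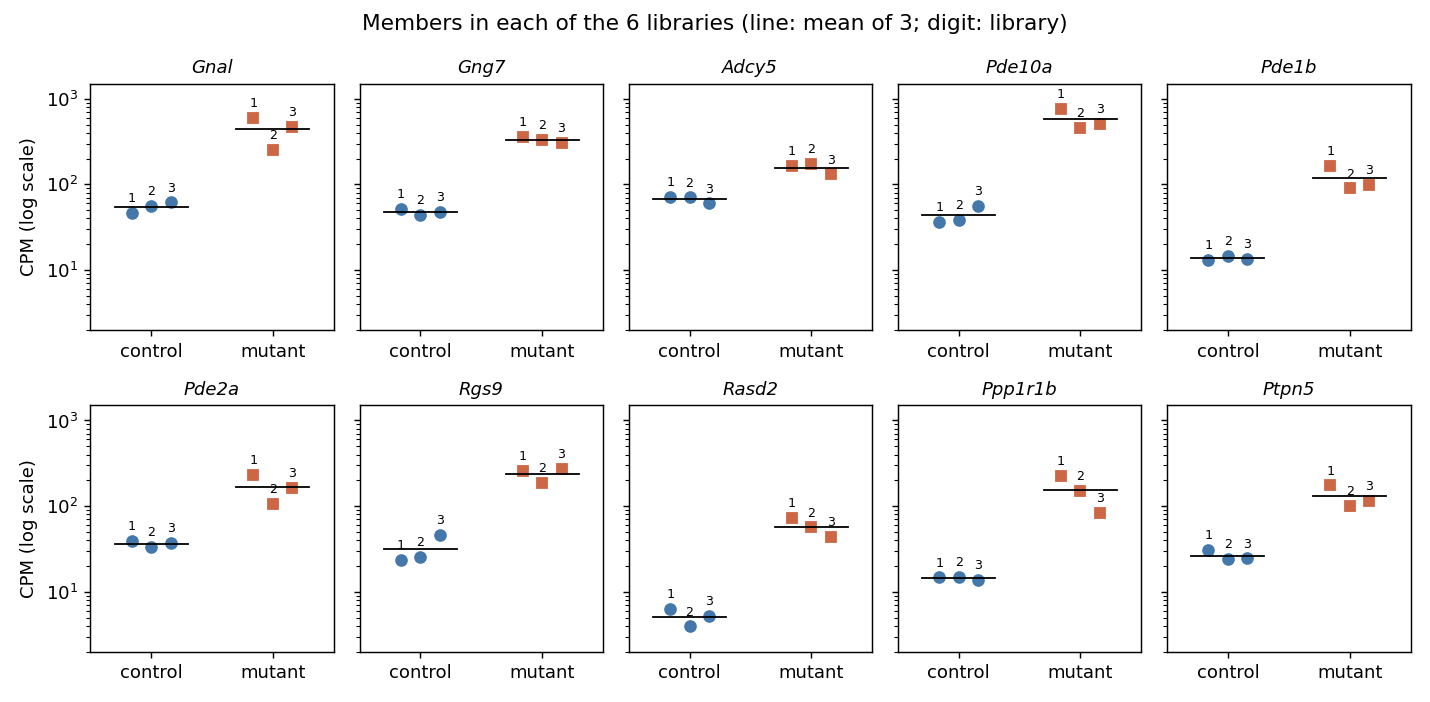
CPM of each of the 10 genes on a log axis, with circles for control and squares for mutant libraries, digits for the library number and a line at the mean of 3. In each panel the squares lie above the circles, most narrowly for Adcy5, and mutant library 1 is the highest square in 8 of 10 panels.

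All 10 genes passed the filter on low counts. In 10 of 10 each mutant library was above each control, as in 12.5% of the 16315 genes tested, and 10 of 10 passed edgeR at an adjusted p under 0.05 in the higher direction, as did 2.95% of all genes, while 0.337% passed in the lower direction. For 9 of the 10, all but Adcy5, each mutant library was at least 2-fold above each control, as in 2.13% of all genes. Since this contrast chose the set, nothing is read from these counts. The median log2 difference was 2.96 over the 10 and -0.002 over all genes tested. Together the 10 genes took 0.0316%, 0.0332% and 0.0385% of counts in control libraries 1, 2 and 3 and 0.293%, 0.181% and 0.232% in mutant libraries 1, 2 and 3. Without mutant library 2 the median was 3.17. Among the 4 libraries with high Xist it was 2.99, from 1 control.

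Levels of different genes were compared per length, as FPKM, which are CPM divided by the exon length of the gene in kilobases. In controls the order of mean FPKM was Gng7 at 13.6 ± 1.11, Adcy5 at 13.3 ± 1.22, Gnal at 9.05 ± 1.25, Ppp1r1b at 8.63 ± 0.377, Pde2a at 7.88 ± 0.629, Ptpn5 at 7.67 ± 1.02, Pde10a at 5.35 ± 1.28, Pde1b at 3.74 ± 0.189, Rgs9 at 3.72 ± 1.51 and Rasd2 at 1.83 ± 0.418 (SD, n = 3). Gng7 and Adcy5 overlapped, as did each neighbouring pair from Gnal to Ptpn5, and Pde1b with Rgs9. Adcy5 lay above Gnal, Ptpn5 above Pde10a, Pde10a above Pde1b and Rgs9 above Rasd2 in every control library without overlap of the ranges.

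In mutants the order was Gng7 at 95.1 ± 6.93 FPKM, Ppp1r1b at 91.7 ± 42.0, Gnal at 72.4 ± 28.2, Pde10a at 70.6 ± 20.2, Ptpn5 at 37.7 ± 11.3, Pde2a at 35.9 ± 13.1, Pde1b at 32.1 ± 11.3, Adcy5 at 30.8 ± 4.32, Rgs9 at 27.98 ± 5.42 and Rasd2 at 20.5 ± 5.22. Only Pde10a and Ptpn5 were neighbours whose ranges did not overlap, and Gnal and Ppp1r1b, above them in the order of means, reached into the range of Ptpn5 in a single library each. Gng7 was first and Rasd2 last in both groups. Adcy5 went from place 2 to place 8 and Pde10a from place 7 to place 4.

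Expressed as shares of the summed FPKM of the set, the make-up differed between the groups. Adcy5 made up 18.5%, 19.4% and 15.5% of the sum in control libraries 1, 2 and 3 and 4.94% to 7.76% in the mutants. Pde10a went the other way, from 5.97% to 8.91% in controls to 12.8% to 14.2% in mutants. Gng7 kept nearly the same share, 18.2% ± 1.13 in controls and 19.0% ± 3.27 in mutants. Ppp1r1b had 11.6% ± 0.821 in controls and 17.4% ± 5.41 in mutants, where mutant library 3, at 11.2%, lay within the control range of 10.7% to 12.3%. These shares come from the contrast that chose the set and are given without a test.

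**Figure D2:**
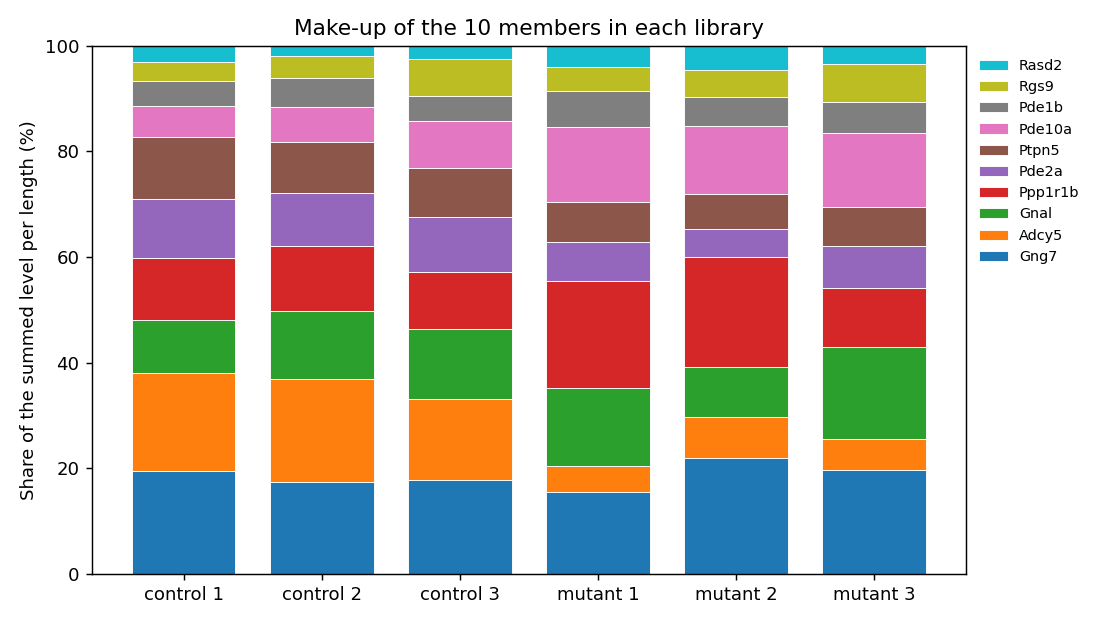
Stacked bars of each gene's share of the summed FPKM of the 10 genes, in percent, 1 bar per library. The Adcy5 segment is 15.5% to 19.4% in the controls and at most 7.76% in the mutants, and the Pde10a segment is larger in the mutants.

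Each member was also set beside its relatives. Adcy5 was the most abundant of 10 adenylyl cyclase genes in both groups, with 22.2% ± 1.78 of their summed FPKM in controls and 33.9% ± 10.1 in mutants, and 45.4% in mutant library 2. Pde10a was eleventh of 24 phosphodiesterase genes in controls, with 2.38% ± 0.606 of the sum, and first in mutants, with 17.4% ± 2.44. Pde4b, a cyclic AMP phosphodiesterase of many cell types, led in controls with 19.1% ± 0.187 and had 10.2% ± 2.90 in mutants. Its mean level was 43.0 ± 0.867 FPKM in controls and 40.2 ± 7.91 FPKM in mutants.

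Gnal stood at 5.23%, 5.76% and 4.63% of the sum of Gnal and Gnas, the alpha subunit gene of general stimulatory G protein, in controls, and at 42.8%, 22.7% and 37.6% in mutants. Gnas had 167 ± 37.5 FPKM in controls and 134 ± 7.27 FPKM in mutants. Gng7 had 3.23% ± 0.219 of the sum of 11 gamma subunit genes in controls and 19.9% ± 1.74 in mutants. Rgs9 had 2.51% ± 0.818 of the sum of 18 RGS genes in controls and 11.3% ± 2.53 in mutants.

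Ppp1r1b had 15.5%, 17.8% and 20.8% of the sum of the 3 Ppp1r1 inhibitor genes in controls and 84.2%, 73.5% and 64.0% in mutants, while Ppp1r1a, which encodes phosphatase inhibitor 1, had 81.8% ± 2.62 and 25.9% ± 9.93. Rasd2 had 47.0% ± 6.41 of its sum with Rasd1, the other gene of its type, in controls and 91.8% ± 5.42 in mutants, where Rasd1 had 1.71 ± 0.839 FPKM against 2.07 ± 0.554 FPKM in controls. Ptpn5 had 58.4% ± 4.95 of the sum with Ptpn7 and Ptprr, which encode related tyrosine phosphatases, in controls and 82.1% ± 5.09 in mutants. In each of these 8 groupings the member's share was higher in every mutant library than in every control. The set was chosen from this contrast and the families after the values were seen, so nothing is read from this.

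**Figure D3:**
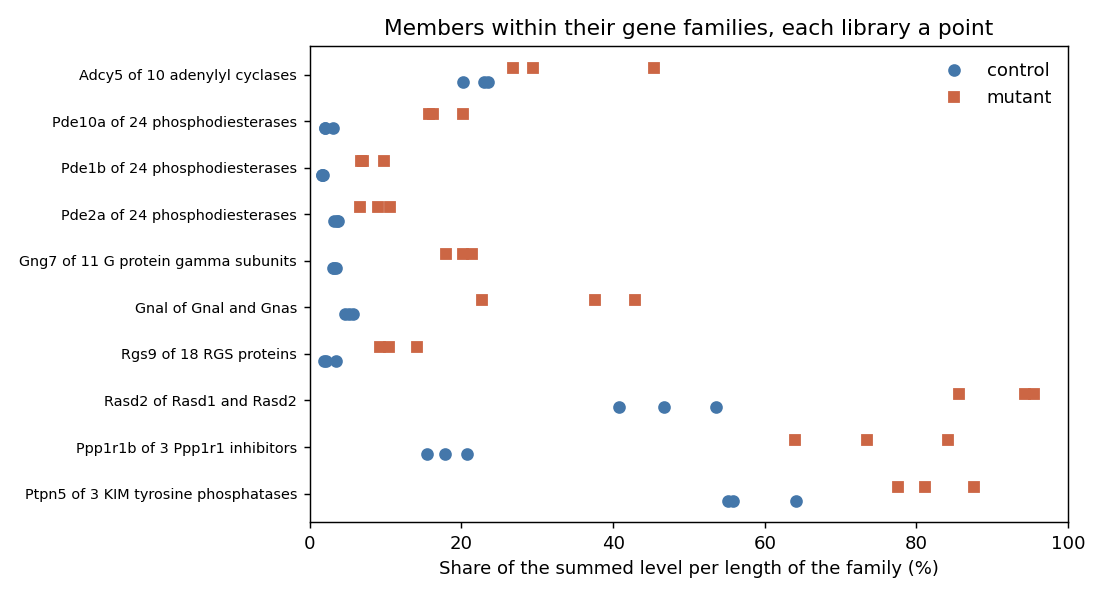
Share of the summed FPKM of its gene family held by each member, in percent, with circles for the 3 control and squares for the 3 mutant libraries. Squares lie to the right of circles for all 10 genes, for example Pde10a (2.38% to 17.4% on average) and Ppp1r1b (18.0% to 73.9%).

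The libraries of a group were not alike. Relative to the control mean of log2 CPM, the 10 genes averaged 3.16, 2.55 and 2.62 in mutant libraries 1, 2 and 3. Mutant library 1 was highest for 8 of the 10 genes, library 2 was lowest for 6 and library 3 for 4. Rasd2 and Ppp1r1b were lowest in mutant library 3, at 3.08 and 2.53, whereas Gnal and Pde2a were lowest in mutant library 2, at 2.22 and 1.55.

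Markers of striatal projection neurons moved with the members in all 3 mutants. Of 19 tested, among them the dopamine receptor genes Drd1a and Drd2, 13 rose and 0 fell by edgeR, and their mean stood 3.64, 2.80 and 3.22 log2 units above control in mutant libraries 1, 2 and 3. Their summed level was 272 to 308 CPM in control against 1221 to 2262 CPM in mutant libraries, and no marker was at 0 in all libraries of a group. This list was written with earlier results of these data known and is not independent evidence. The summed CPM of the 10 genes was 1.08, 1.20 and 1.24 times that of these markers in the controls and 1.33, 1.56 and 1.20 times in the mutants.

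Markers of neurons of any type were less even. Of 14 tested, 2 rose, and their mean stood 2.03, 0.38 and 1.35 log2 units above control in the mutants, in library order, with sums of 1137 to 1682 CPM in control against 1832 to 6285 CPM in mutant libraries. The members' summed CPM was 0.293, 0.265 and 0.217 times that sum in the controls and 0.477, 1.04 and 0.475 times in the mutants. Cortical excitatory markers, of which 0 of 6 tested passed, had a mean of 3.34, 0.22 and 1.82 and sums of 87.2 to 128 CPM in control against 97.6 to 390 CPM in mutant libraries. GABAergic markers, of which 3 of 7 rose, had a mean of 2.36, 0.71 and 2.64 and sums of 243 to 388 CPM in control against 589 to 1832 CPM in mutant libraries. Mutant library 2 thus held the members at 2.55 while the general neuronal and cortical markers stood at 0.38 and 0.22. The part of any of these cells in the members' levels was not tested.

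Genes of the nerve's own glia showed another split. Myelin markers summed to 25877 to 26698 CPM in control against 5425, 33816 and 4662 CPM in mutant libraries 1, 2 and 3, and 0 of 10 passed. All 10 were detected in both groups, with mutant libraries 1 and 3 below every control in the sum and mutant library 2 above. The median log2 fold change was -0.89 for these myelin markers, -0.53 for astrocytes (0 of 8 passed), -0.39 for microglia (0 of 7) and -1.50 for fibroblasts (0 of 7). The astrocyte sum was 5080 to 5366 CPM in control against 5467 to 6411 CPM in mutant libraries, the microglial sum 483 to 641 against 262 to 673 CPM, and the fibroblast sum 1162 to 1293 against 252 to 775 CPM, so for astrocytes the sum and the median differed in sign. The median was -0.93 for endothelium and mural cells, where 1 of 7 fell, and -0.54 for choroid plexus, where 1 of 3 rose, with sums of 219 to 251 against 91.6 to 154 CPM and of 52.4 to 73.4 against 30.2 to 43.9 CPM. Hypothalamic markers had a median of -0.89, with 1 higher and 1 lower of 8, and sums of 368 to 738 against 85.9 to 684 CPM. Striatal cholinergic and other interneuron markers had 2 of 7 higher, a median of 1.41 and sums of 24.9 to 103 against 51.3 to 166 CPM, and retinal markers 1 of 8 higher and 0.42, with sums of 31.1 to 41.9 CPM in control against 26.98 to 37.9 CPM in mutant libraries. Pou4f2 of the retina list and Folr1 of the choroid plexus list were at 0 in all mutants. In control libraries 1, 2 and 3, Pou4f2 had only 0, 5 and 3 counts and Folr1 had 7, 1 and 45. Neither passed the filter on low counts. Of the sex list only Xist was tested and did not pass. Ddx3y, Eif2s3y, Kdm5d and Uty, on the Y chromosome, were at 0 in control library 2 and all mutants. In control libraries 1 and 3 they had 58.2 to 108 CPM. Sex, as read from Xist and these genes, was thus unbalanced between the groups and cannot be fully told apart from genotype.

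**Figure D4:**
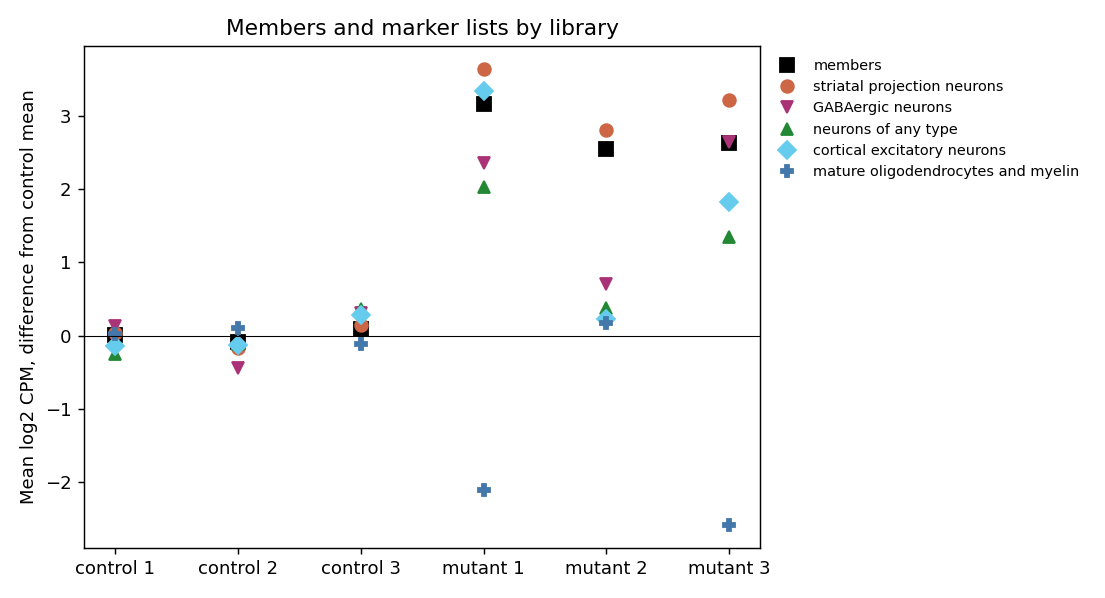
Mean log2 CPM of the 10 genes (black squares) and of 5 marker lists in each library, as the difference from the control mean. In mutant library 2 the members and the striatal markers stand at 2.55 and 2.80 while the general neuronal, cortical and myelin lists lie between 0.18 and 0.38.

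Beyond the 10 genes, 129 other genes of cyclic AMP signalling were found in the tables and 122 were tested. By edgeR 14 rose and 0 fell, 11.5% of those tested against 3.29% of all genes. An unadjusted edgeR p under 0.05 was found for 50 of the 122, of which 8 were lower, and for 19.2% of all genes tested. The median log2 fold change was 0.32, against 2.96 in the set and -0.002 over all genes. The 14 differed in how far they depended on single libraries. Without control libraries 1, 2 and 3 the number higher was 2, 3 and 4, and without mutant libraries 1 and 3 it was 7 and 5. Over all genes tested, 51, 81, 112, 164 and 199 passed in these fits, in either direction. Without mutant library 2, 45 of the cyclic AMP genes were higher and 14 lower, and 4551 of all 16857 genes tested passed. Akap5 and Arpp21 were called whichever library was left out. Of the other 12, Rgs8 was called in 5 of these 6 fits, Rasgrp1 in 4, Prkar2b in 3, Rgs7bp and Ppp3ca in 2, and Gnb5, Gng13, Pde8b, Rap1gap, Rgs4, Ppp1r9a and Ppp1r9b in 1. With Xist as a term of the model 0 passed, and 32 had an unadjusted p under 0.05, as did 1304 of all 16315 genes tested.

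Of 9 other adenylyl cyclases 0 passed, with a median of 0.23. Adcy1, a neuronal calcium-stimulated cyclase, had a log2 difference of 1.53 with SE 0.51 and did not pass (adjusted p 0.150 in edgeR), Adcy2 of 1.01 and Adcy6 of -0.64. Of 21 other G protein genes 2 rose. Gnb5, the beta subunit that partners RGS proteins such as that of Rgs9, went from 28.4 ± 5.62 to 91.6 ± 40.8 CPM (a log2 difference of 1.69 with SE 0.35, adjusted p 0.0377 in edgeR), and the gamma subunit gene Gng13 rose by 3.28 log2 units from 0.431 ± 0.275 CPM (adjusted p 0.0430 in edgeR). Gng4 had a log2 fold change of 1.97 (adjusted p 0.175 by edgeR).

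Of 18 other phosphodiesterases 1 rose. This was Pde8b, which encodes an enzyme selective for cyclic AMP, from 41.8 ± 9.14 to 128 ± 27.6 CPM (a log2 difference of 1.61 with SE 0.27, adjusted p 0.0173 in edgeR). Pde7b, also known in striatum, had 56.9 ± 10.3 and 123 ± 33.6 CPM and missed the threshold (edgeR adjusted p 0.0647), and Pde4a had a log2 fold change of 1.46. Of 9 genes of protein kinase A and its inhibitors 1 rose and all 9 fold changes were positive. Prkar2b, the regulatory subunit prominent in brain, had 17.6, 16.9 and 21.9 CPM in control against 145, 56.6 and 209 CPM in mutant libraries (a log2 difference of 2.86 with SE 0.44, adjusted p 0.0129 in edgeR). Pkia and Prkar1b had log2 differences of 1.21 and 1.01 and did not pass.

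Of 11 A-kinase anchoring protein genes 1 rose. Akap5, which holds protein kinase A at the postsynaptic membrane, had 21.3, 15.3 and 18.9 CPM in control against 275, 164 and 375 CPM in mutant libraries (a log2 difference of 3.88 with SE 0.35, adjusted p 0.00161 in edgeR). Akap12 and Akap1 did not pass, with log2 differences of -1.08 and 0.84. Of 10 exchange factor and small GTPase genes 2 rose, Rasgrp1, a Ras activator, by 3.39 log2 units (edgeR adjusted p 0.00609) and Rap1gap, which inactivates Rap, by 1.95 (edgeR adjusted p 0.0160). Rasgrp2 had 6.99 ± 0.828 and 15.7 ± 0.975 CPM (edgeR adjusted p 0.0526).

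Of 17 genes of RGS proteins and partners 3 rose. Rgs8 went from 11.9 ± 3.91 to 117 ± 51.2 CPM (a log2 difference of 3.29 with SE 0.38, adjusted p 0.00451 in edgeR), Rgs7bp, an anchor of RGS and Gnb5 complexes, rose by 2.29 log2 units (adjusted p 0.0160) and Rgs4 by 1.77 (adjusted p 0.0419). The call of Rgs8 was lost without control library 1 (edgeR adjusted p 0.0566). Of 19 genes of phosphatases and their regulators 4 rose and 18 fold changes were positive. Arpp21, a second striatal substrate of protein kinase A, had 15.7, 24.8 and 27.5 CPM in control against 947, 355 and 611 CPM in mutant libraries (a log2 difference of 4.81 with SE 0.44, adjusted p 0.00161 in edgeR), a larger difference than any of the 10 members. Ppp3ca, the calcineurin catalytic subunit whose enzyme removes phosphate from DARPP-32, rose by 2.03 log2 units (edgeR adjusted p 0.0265), and Ppp1r9b, which encodes spinophilin, a targeting subunit of protein phosphatase 1, by 1.20 (adjusted p 0.0322). Ppp1r9a, named after its values were seen, rose by 1.31 log2 units (edgeR adjusted p 0.0458).

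Of the 8 genes of the CREB family and its coactivators 0 passed, with a median of -0.08. Crtc1, a coactivator of CREB in neurons, had 48.7 ± 10.2 CPM in control against 97.5 ± 20.4 CPM in mutant libraries (edgeR adjusted p 0.0756), and Crtc2 and Crtc3 had log2 fold changes of -0.68 and -0.42.

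**Figure D5:**
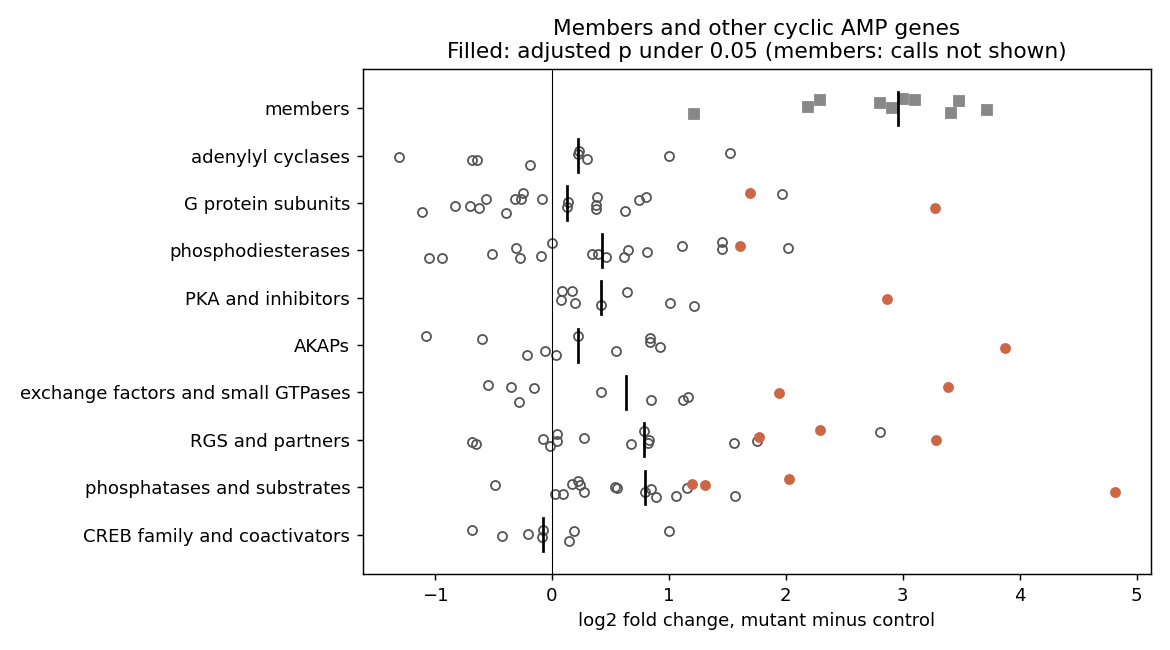
Log2 fold change, mutant minus control, of the 10 members (grey squares, shown without calls because this contrast chose them) and of 122 other genes in 9 role lists (circles, filled where the edgeR adjusted p was under 0.05), with a line at each median. The member median is 2.96 and the list medians lie between -0.08 and 0.79.

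Genes of like pattern were those whose centred log2 CPM profile over the 6 libraries lay closest to the mean profile of the 10 members, by root mean square distance. The 8 closest of 14800 genes were Cpne5, Hipk4, Rbfox3, Gucy1a3, Dclk3, Lingo3, Ndrg4 and Camk4, at 0.223 to 0.244 log2 units, where the median gene lay at 1.46. These 14800 were the genes tested outside the set, less small RNAs and gene models with Gm, LOC or Rik names. Cpne5, a calcium-binding copine gene, had 5.20, 4.73 and 4.73 CPM in control against 65.3, 33.3 and 39.4 CPM in mutant libraries. Rbfox3, the gene of the neuronal nuclear antigen NeuN, had 11.7, 9.83 and 12.7 CPM in control against 151, 61.4 and 79.5 CPM in mutant libraries. Gucy1a3, a subunit gene of the nitric oxide receptor that makes cyclic GMP, had 42.1, 35.7 and 39.7 CPM in control against 301, 148.5 and 230.0 CPM in mutant libraries. In all 3 genes mutant library 1 was the highest mutant and mutant library 2 the lowest, as also in Dclk3, Ndrg4 and Camk4. Hipk4 and Lingo3 were lowest in mutant library 3, at 14.3 and 15.6 CPM. Of the members, 6 were lowest in mutant library 2 and 4 in mutant library 3.

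The members themselves lay at 0.165 for Gng7 and 0.178 for Pde1b, closer than any of the 14800 genes compared, and at 0.280 to 0.491 for 7 others. Adcy5 lay farthest, at 0.818, and 632 of the 14800 genes were closer to the mean profile than it was. The mean profile is made from the members' own profiles, which favours them, so nothing is read from their rank against other genes. These distances rest on 6 libraries in 2 groups that differ in many genes, and are a description.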

How the data were processed

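Gene counts of 6 optic nerve libraries, 3 control and 3 mutant, were used. Each deposited table gives whole fragment counts by gene. Per the file headers they come from featureCounts 1.4.6-p4 run in paired mode on exons of a UCSC mm10 gene set, with strand ignored. TopHat and DESeq2 are named in the submitters' processing notes. Per the labels' protocols RNA was amplified with an Ovation kit before Nextera library preparation, so copies are not independent molecules.

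Of the 24062 genes, the 16315 kept by filterByExpr (minimum count 10) were fitted in edgeR 4.0.16 (R 4.3.3). The fit used TMM scaling, quasi-likelihood F tests and Benjamini-Hochberg adjustment over all genes tested at 0.05. The standard error (SE) is the size of the log2 fold change divided by the square root of F. Log2 CPM used a prior count of 2. FPKM used the exon lengths of the files. No pair of libraries was alike within counting noise, the smallest chi-square per df being 45.59.

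The members, gene lists and tests were chosen with earlier results of these data known, and the gene families after the values were seen. The members were all named, and from each role list up to 3 genes, called genes first and then by smallest p. From the marker lists, genes at 0, Drd1a, Drd2 and Xist were named, Drd1a and Drd2 after their values were seen. Alternatives were other scaling, DESeq2 1.42.0, no filter, Xist (log2 CPM) as a covariate, the high Xist libraries alone and leaving out each library.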

Additional observations from a re-analysis of the deposited data

How the results depend on the processing

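The median log2 difference of the 10 members, 2.96, was 2.76 to 3.17 over the 6 fits that left out 1 library each, and 2.93 to 3.02 under the other 6 alternatives. No member changed sign in any of the 12. The 10 members that passed became 7 to 10 when 1 library was left out. They became 0 with the Xist covariate and 0 among the high Xist libraries alone, which hold 1 control. Under both settings 0 genes passed by edgeR, of which 0 were other cyclic AMP genes, while 1304 and 894 genes had an unadjusted p under 0.05, 32 and 22 of them among those cyclic AMP genes.

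The 537 genes that passed were 1645 by DESeq2, 870 with no filter and 51 to 4551 when 1 library was left out. The 14 cyclic AMP genes that rose were 33 by DESeq2, 21 with no filter and 2 to 45 when 1 library was left out. Among all the other cyclic AMP genes 0 fell, against 1 by DESeq2 and 0 to 14 when 1 library was left out. The count of 14 lower arose only without mutant library 2, where the 14 genes that rose in the main fit were all still called higher. The cause was not tested. No paired analysis was possible because the labels give no replicate numbers. The summed FPKM of the members, 74.7 in controls and 515 in mutants, was 75.2 and 510.3 with total counts.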
